A study of Danio rerio with 6 samples.

Results

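The genes described are the collagens and the proteins of the basement membrane, taken as every gene of the deposited table whose symbol begins as a numbered collagen chain (col), a laminin alpha, beta or gamma chain (lama, lamb, lamc) or a nidogen (nid1, nid2), or is hspg2 or agrn. The rule found 58 of 19722 listed genes. The RefSeq annotation of the assembly GRCz12tu holds 80 symbols that meet the rule. Of those symbols, 24 were not listed, so the counts below cover only genes listed under such a symbol. Of the 58 genes, 56 are named as genes of matrix proteins: 23 chains of the basement membrane and 33 other collagen chains. One of the 23, nid1b, is listed by RefSeq as a transcribed pseudogene. The remaining 2, col4a3bpa and col4a3bpb, met the rule by their symbol only. The gene name list gives both as CERT1, the ceramide transfer protein, which is not a collagen. Both genes are counted among the 58 and in their summed CPM. They were left out of the groups of basement membrane chains and other collagens.

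GFP-positive cells of zebrafish embryos at the 15 somite stage were sorted from a pair of transgenic lines, with 3 libraries of each and 6 in all. The line Gt(SAGFF27C); Tg(4xUAS:egfp), named Gt(endocard:egfp) below, is a gene trap that drives GFP in the endocardium, the inner lining of the heart, and weakly in heart muscle cells, so only its brightly labelled cells were used. From time-lapse movies, the paper proposes that Gt(endocard:egfp) likely labels a few myeloid cells too, at a stage after the one sorted. The weak signal in heart muscle cells was likewise imaged at later stages. Tg(fli1a:egfp) labels the endothelium as a whole, endocardium included, and blood cells. Carrier fish were crossed to wild type to obtain the embryos; the Gt(endocard:egfp) parents were homozygous and the Tg(fli1a:egfp) parents heterozygous. The RNA was amplified by Smart-seq2, a method that copies messenger RNA into DNA by reverse transcription and then amplifies this DNA by PCR.

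Expression is given as the authors' mean over the 6 libraries, in log2 CPM (reads of a gene scaled to the size of the library), and as the CPM obtained by reversing the logarithm of that mean. Each gene therefore has 1 value, with no error, and the value is not that of either line. No difference of one line from the other was tested or is reported here. CPM counts reads, and the number of reads can depend on the length of a transcript. Lengths were not used here, so an order of genes by CPM is not one of transcripts. The CPM is also a geometric mean over libraries of unlike lines, so that a gene that differs between the lines has a lower value than the arithmetic mean of its reads. Ranks, ratios and summed shares below are those of this mean, and where they are said to be of reads this is meant.

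The basement membrane is a thin sheet of matrix on which epithelia, endothelia and muscle rest. Laminins, each built from an alpha, a beta and a gamma chain, form one network, type IV collagens form another, and nidogens and the heparan sulphate proteoglycans perlecan and agrin connect them. Between cardiac muscle and endocardium, such proteins lie in the matrix that is known as the cardiac jelly. Fibrillar collagens make the fibres of connective tissue, and type II collagen, with types IX and XI, is known from cartilage and from the sheath of the notochord.

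At least 1 CPM was reached by 39 of the 58 genes (67.2%), against 73.9% of all listed genes. The median of the 58 was 3.16 log2 CPM (8.94 CPM), against 2.58 log2 CPM (5.98 CPM) for all listed genes. Without the col4a3bp genes, 37 of 56 reached 1 CPM and the median was 2.86. With 8 further rows that only the gene name list assigns to these families, the median fell to 1.94, under that of all listed genes, so its direction depends on how the members are named. With all listed genes split by rank into 4 equal parts, 19 of the 58 fell in the lowest part, 7 in the next, 23 in the one above and 9 in the highest. Together they took 0.191% of the summed CPM of the table.

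A few genes held most of these reads. nid2a alone accounted for 36.9% of the summed CPM of the 58 genes, nid2a and nid1b together for 51.6%, and the first 5 genes by CPM (nid2a, nid1b, lamb1a, col2a1a and col2a1b) for 71.7%. The 23 basement membrane chains took 75.4%, and the 33 other collagens 22.7%. Leaving out nid2a lowered the basement membrane share to 61.0%. These shares count nid1b, which RefSeq lists as a transcribed pseudogene, and shares without it were not computed.

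Nidogens, glycoproteins that bind laminin and type IV collagen, held both the highest values and some of the lowest. nid2a had a mean of 9.39 log2 CPM (672 CPM), higher than 99.1% of the listed genes. The mean of nid1b was 8.07 log2 CPM (268 CPM), higher than 97.1% of the listed genes. Their duplicates nid2b and nid1a stood at 0.250 and 0.396 CPM. Of each nidogen, then, 1 copy was among the most read genes of the table and the other was under 1 CPM. nid1b is listed as a transcribed pseudogene in the RefSeq annotation of the assembly GRCz12tu.

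**Figure D1:**
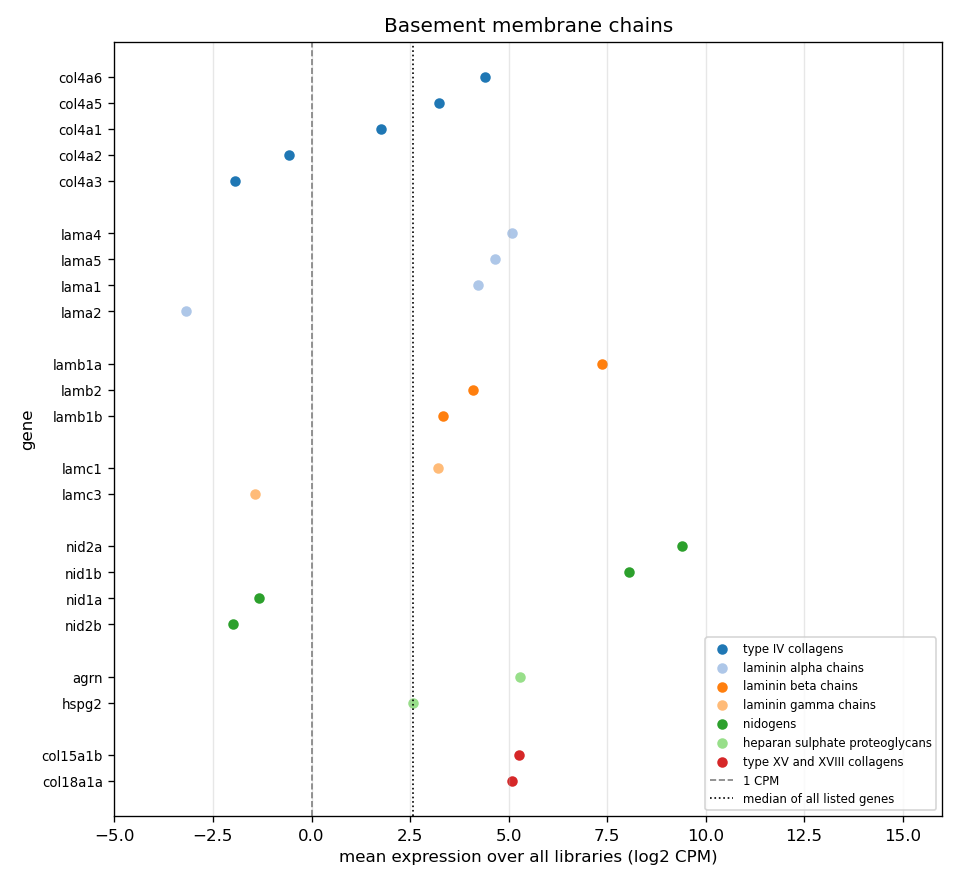
Mean expression over all libraries (log2 CPM, horizontal axis) of 22 basement membrane genes (vertical axis), grouped and coloured by family; the dashed line marks 1 CPM and the dotted line the median of all listed genes. nid2a (9.39) and nid1b (8.07) lie farthest right, while nid1a, nid2b, lama2, lamc3, col4a2 and col4a3 lie left of 1 CPM.

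Of 10 laminin chains listed by symbol, 7 reached 1 CPM (70%, near the 73.9% of all listed genes). Among the alpha chains, which carry the binding sites for cell surface receptors, lama4 was listed at 34.0 CPM, lama5 at 25.1 CPM and lama1 at 18.7 CPM. lama4 is known as an alpha chain of endothelial basement membranes. lama2, the alpha chain of muscle laminin, was listed at 0.110 CPM, and only 2.24% of the genes had a lower value. The alpha chains lama1, lama4 and lama5 thus lay within a narrow range of reads, and lama2 was near the bottom of the table.

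The beta chain lamb1a had a mean of 7.37 log2 CPM (166 CPM), and the other beta chains, lamb2 and lamb1b, were listed at 17.0 and 10.1 CPM. All 3 beta chains listed by symbol were above 1 CPM, a floor that 73.9% of all listed genes reached. A further row, named lamb2l only by the gene name list, stood at 2.13 CPM, and lamb3 and lamb4 were not listed under those symbols. Of the gamma chains, lamc1 was above 1 CPM, with 9.28 CPM, and lamc3 was listed at 0.369 CPM. The summed CPM of the alpha, beta and gamma chains was 78.0, 193 and 9.71, so the beta chains took more reads than the other chains together, mostly through lamb1a.

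Type IV collagen chains, the network-forming collagens of every basement membrane, took fewer reads than nid2a or nid1b. col4a6 was listed at 21.2 CPM, col4a5 at 9.36 CPM and col4a1 at 3.39 CPM. col4a2 and col4a3 were under the floor, with 0.673 and 0.262 CPM. The 5 chains together took 1.91% of the summed CPM of the 58 genes, against 51.6% for the 4 nidogens and 15.4% for the 10 laminins. Chains known to join in one molecule, col4a1 with col4a2 and col4a5 with col4a6, differed by 2.33 and 1.18 on the log2 scale of the means. How much of these differences comes from transcript length was not tested.

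Both proteoglycans and the listed genes of collagen types XV and XVIII were above 1 CPM, as were 73.9% of all listed genes. The copies col15a1a and col18a1b were not listed under those symbols. agrn, which encodes agrin, the organiser of the neuromuscular junction, was listed at 39.0 CPM. hspg2, which encodes perlecan, was listed at 6.01 CPM, a value close to the median of all genes. col15a1b and col18a1a, whose products lie at the interface of basement membrane and connective tissue, were listed at 38.8 and 33.8 CPM. The C-terminal fragment of type XVIII collagen is endostatin, known in mammals as an inhibitor of vessel growth. These 4 genes spanned 2.59 to 5.29 log2 CPM, so all of them were at or above the median of the listed genes.

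Fibrillar collagens were the most numerous group, with 14 chains listed and 10 of them above 1 CPM (71.4%, near the 73.9% of all listed genes). The copies of type II collagen, col2a1a and col2a1b, were listed at 134 and 65.9 CPM. col11a1a, whose product joins type II collagen in its fibrils, followed at 30.0 CPM, and col11a1b was listed at 4.12 CPM. Of type I collagen, the collagen of skin, tendon and bone, col1a2 was listed at 16.1 CPM, col1a1a at 9.28 CPM and col1a1b at 2.37 CPM. Type V chains, which set the width of type I fibrils, were listed at 17.9 CPM (col5a1), 10.2 CPM (col5a2a) and 6.01 CPM (col5a3a). The 4 fibrillar chains under 1 CPM were col27a1b, col11a2, col5a2b and col5a3b, between 0.0707 and 0.336 CPM.

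**Figure D2:**
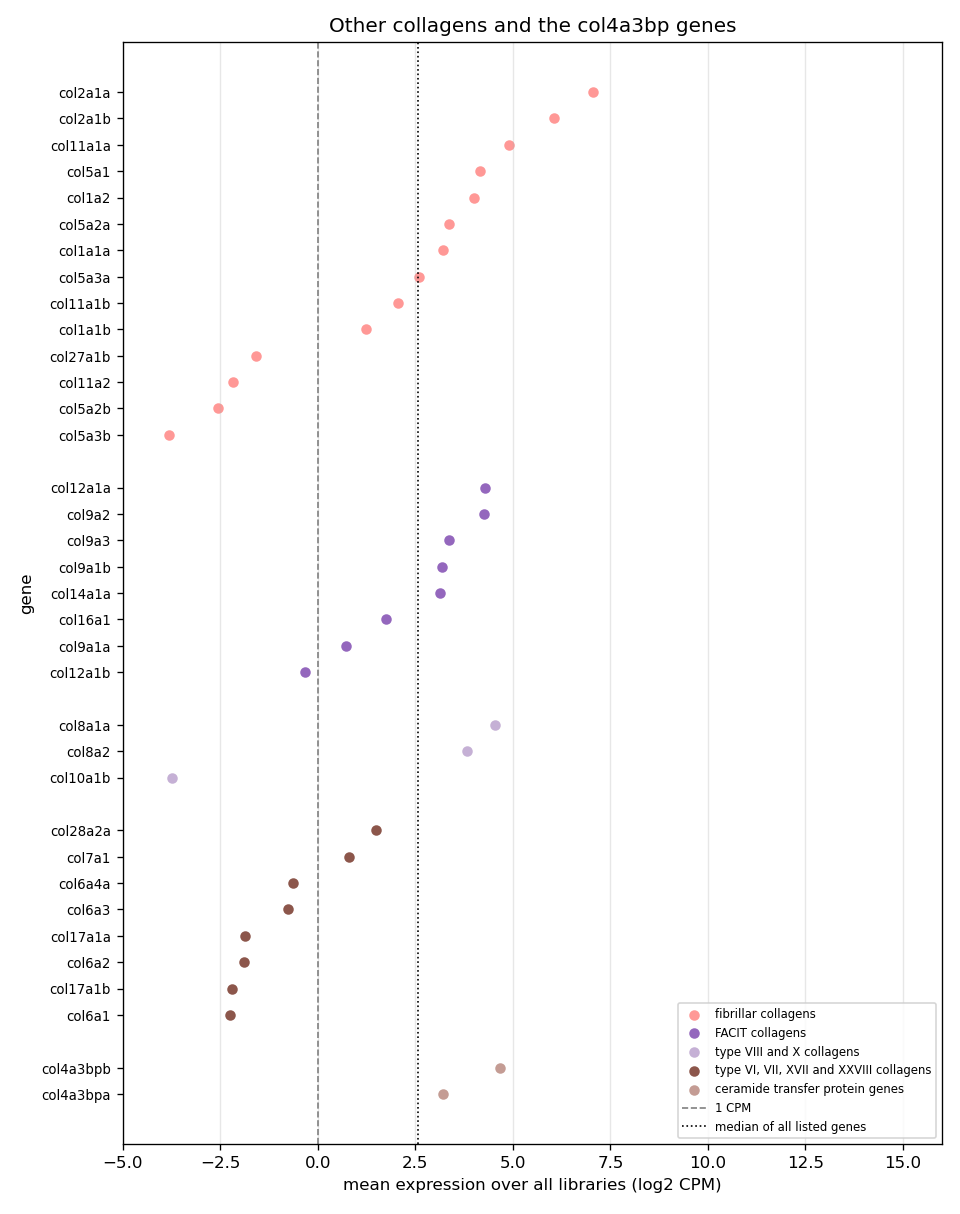
Mean expression over all libraries (log2 CPM, horizontal axis) of the 33 other collagens and the 2 col4a3bp genes (vertical axis), grouped and coloured by family; the dashed line marks 1 CPM and the dotted line the median of all listed genes. col2a1a (7.07) and col2a1b (6.04) lie farthest right. Left of 1 CPM lie 6 of the 8 type VI, VII, XVII and XXVIII chains, against 5140 of all 19722 listed genes.

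FACIT collagens, which sit on the surface of fibrils, were above 1 CPM in 7 of 8 cases (87.5%, against 73.9% of all listed genes). The chains of type IX collagen, the partner of type II, were listed at 19.2 CPM (col9a2), 10.3 CPM (col9a3), 9.09 CPM (col9a1b) and 1.65 CPM (col9a1a). col12a1a was listed at 19.5 CPM, col14a1a at 8.79 CPM and col16a1 at 3.37 CPM, while col12a1b stood at 0.798 CPM. All 4 type IX chains and both copies of type II collagen were thus above 1 CPM, as were col11a1a and col11a1b of type XI. The chain col11a2 was under it. Whether these genes were read in the same libraries or cells cannot be told from the mean.

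The short-chain collagens of type VIII, known from the matrix under endothelial cells and, in zebrafish, from the notochord, were listed at 23.2 CPM for col8a1a and 14.1 CPM for col8a2. col10a1b, a chain of the collagen of growing cartilage and bone, was listed at 0.0751 CPM. The chains of type VI collagen, which forms beaded filaments in muscle and other connective tissue, were all under 1 CPM, from 0.211 CPM for col6a1 to 0.642 CPM for col6a4a. Also under 1 CPM were col17a1a (0.273 CPM) and col17a1b (0.217 CPM), the transmembrane collagen of epidermal attachment. col28a2a (2.80 CPM) and col7a1 (1.73 CPM), the latter the anchoring fibril collagen of the skin, were above it. The type VI and type XVII chains thus fell in the lower part of the table, as lama2 did among the laminins.

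The values nearest to 1 CPM left a gap in which no gene of the 58 lay. The nearest above it were col9a1a, col7a1 (1.73 CPM) and col1a1b (2.37 CPM), and the nearest below it col12a1b, col4a2 (0.673 CPM) and col6a4a (0.642 CPM). Between col12a1b at 0.798 CPM and col9a1a at 1.65 CPM there was none of the 58. Rows named only by the gene name list did lie there: a col7a1l row (1.07 CPM) and COL4A4 (0.888 CPM). A mean under 1 CPM can come from few reads in all libraries or from a gene read in one line and hardly in the other, and the mean cannot tell these apart.

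Zebrafish keep many of these genes as duplicates, named a and b. Of 11 collagen, laminin and nidogen pairs with both copies listed by symbol, 5 had both copies at 1 CPM or more. Another 5 had only 1, and in 1 pair, col17a1, both were under it. Rows named only by the gene name list, such as col14a1b (1.81 CPM), col23a1a (0.445 CPM) and col23a1b (0.331 CPM), were not paired. Among all listed genes, 73.9% reached 1 CPM. The a copy had the higher mean in 9 pairs, and the b copy in nid1 and col9a1. The median difference within a pair was 4.04 on the log2 scale, and in 8 pairs it came to at least 4-fold. Pairs of other genes were not compared, so whether these counts and differences are particular to these families was not tested. The narrowest differences were 0.33 for col17a1 and 1.02 for col2a1, and the widest 9.40 for nid1 and 11.39 for nid2. Both col17a1 copies, nid1a (0.396 CPM) and nid2b (0.250 CPM) were under 1 CPM, and the precision of such low means is not known. The sizes of the col17a1, nid1 and nid2 differences are therefore uncertain. How the counting treated reads that fit both copies is not given in the sources used here, so values of similar copies are uncertain.

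**Figure D3:**
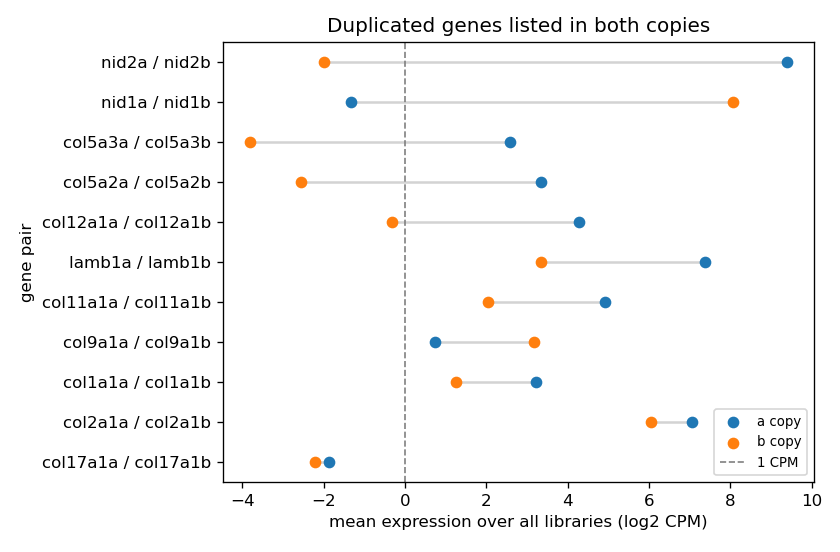
Mean expression over all libraries (log2 CPM, horizontal axis) of the a copy (blue) and the b copy (orange), joined by a grey line. The vertical axis holds the 11 duplicated genes with both copies listed by symbol. The dashed line marks 1 CPM. The distance between copies widens from 0.33 for col17a1 at the bottom to 11.39 for nid2 at the top.

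Some of the genes lie side by side in the genome. In the gene order of GRCz12tu, where 56 of the 58 symbols were found, no other protein-coding gene lay between col4a1 and col4a2, between col4a5 and col4a6, or between col9a2 and col16a1. The values of these neighbours differed, and whether they differed less than those of other genes was not tested. col4a6 had 2.26 times the CPM of col4a5, and col4a1 5.04 times that of col4a2. col9a2 had 5.68 times the CPM of col16a1.

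The counts of the following lists are read against the 73.9% of all listed genes at 1 CPM or more. Of a list of 23 genes for collagen folding and modification, 20 were found and 18 were at 1 CPM or more (90.0%), with a median of 4.67 log2 CPM. The highest were ppib, a prolyl isomerase (327 CPM), serpinh1b, the collagen chaperone Hsp47 (201 CPM), and plod3, a lysyl hydroxylase (200.2 CPM). p4hb, the beta subunit of prolyl hydroxylase, was listed at 164 CPM, with its alpha subunit p4ha1b at 80.7 CPM. Those under 1 CPM were p4ha3 and fkbp10a. Some of these genes, ppib and p4hb among them, serve the folding of other secreted proteins too.

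The list for the later steps had a lower median. Of 28 genes for secretion, processing and cross-linking, 19 were found and 16 were at 1 CPM or more (84.2%), with a median of 2.53 log2 CPM. The coat protein gene sec23b (90.5 CPM), mia3, which loads procollagen into transport carriers (46.7 CPM), and creb3l2, a regulator of secretory genes (17.0 CPM), were the highest. pxdn, which cross-links type IV collagen, was listed at 1.88 CPM. bmp1b, tgm2l and loxl4, the last a lysyl oxidase, were under 1 CPM. The lysyl oxidase genes that reached it ran from loxl1 at 1.57 CPM to loxl2b at 11.6 CPM.

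Of 39 genes for receptors of the basement membrane and their linkers, 33 were found and 25 were at 1 CPM or more (75.8%, near the share of all genes), with a median of 3.03 log2 CPM. sdc4, a syndecan, was the highest at 289 CPM, followed by ilk, which ties integrins to actin, at 172 CPM, and itgb1b, an integrin beta chain, at 112 CPM. The laminin receptors dag1 (dystroglycan), itga6a and bcam were listed at 71.3, 20.2 and 23.9 CPM. itgb4, the integrin beta chain of epidermal attachment, was listed at 0.700 CPM. itga1 and itga11a, integrins that bind collagen, were listed at 0.393 and 0.163 CPM, and itga2.3 and itga10, which also do, at 6.48 and 2.24 CPM. Also under 1 CPM were itga6l, itga3a, parvb, ddr2a and lrp4.

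Of 32 other proteins of the basement membrane and nearby matrix, 25 were found and 18 were at 1 CPM or more (72.0%, also near the share of all genes), with a median of 1.96 log2 CPM. Fibronectin fn1a, on which heart precursors migrate, was listed at 751 CPM, egfl7, an endothelial matrix protein, at 233 CPM, and fn1b at 79.0 CPM. The 7 under 1 CPM were frem2b, hmcn2, ntn4, ntn5, frem1a, smoc1 and vtna.

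**Figure D4:**
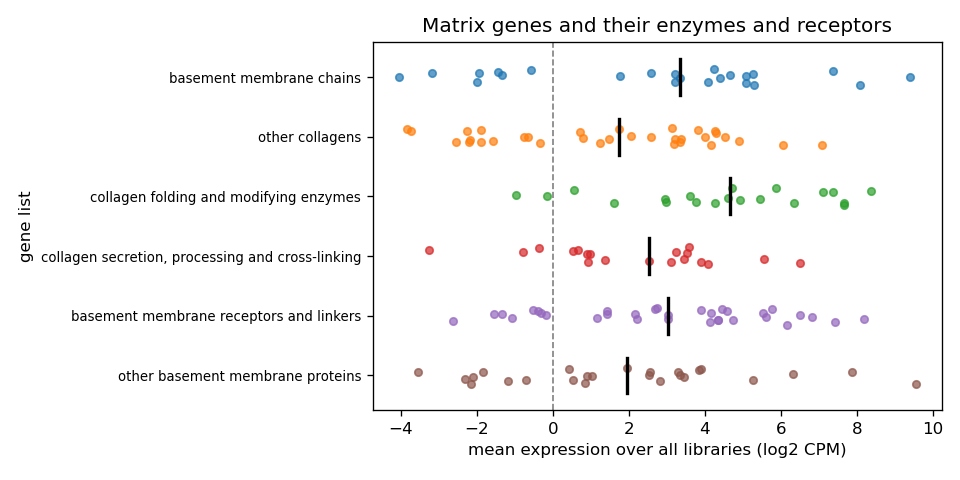
Mean expression over all libraries (log2 CPM, horizontal axis) of single genes (points) in the basement membrane chains, the other collagens and the 4 lists of related genes (vertical axis); points are spread vertically for visibility only, the thick bars mark medians and the dashed line 1 CPM. The median is highest for the folding and modifying enzymes (4.67) and lowest for the other collagens (1.75).

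Marker genes of several cell types were read in the same libraries. All 8 endothelial markers were above 1 CPM (3.13 to 1194 CPM, median 335 CPM), as were all 4 endocardial markers (22.6 to 751 CPM, median 58.7 CPM). The highest endocardial marker, fn1a, is also on the list of other basement membrane proteins. Every gene on the lists of other cell types reached 1 CPM too, a floor that 73.9% of all listed genes reach. None of these counts, those of the endothelial and endocardial lists included, therefore shows that a cell type was there. The lists of other cell types held 5 red blood (2.59 to 140 CPM), 3 myeloid (2.52 to 935 CPM), 4 myocardial (1.23 to 16.1 CPM), 4 skeletal muscle (2.41 to 94.8 CPM), 4 epidermal (44.8 to 1633 CPM), 3 neural crest (1.20 to 18.6 CPM), 3 neural (2.87 to 18.3 CPM) and 4 sclerotome and fibroblast genes (2.17 to 43.2 CPM). The notochord list ran from 2.12 to 23.2 CPM over 4 genes. The highest, col8a1a, is one of the collagens described, and the transcription factor gene tbxta was listed at 21.7 CPM. The others, shha (5.34 CPM) and noto (2.12 CPM), were under the median of all listed genes (5.98 CPM). The medians of the lists of other cell types ran from 2.83 CPM (myocardial) to 190 CPM (epidermal). The part of such cells in the collagen values was not tested, and within a mean of bulk libraries few cells of high expression and many cells of low expression cannot be told apart.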

How the data were processed

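RNA of sorted GFP-positive cells was sequenced in 6 libraries, 3 of Gt(endocard:egfp) and 3 of Tg(fli1a:egfp). The authors used Rsubread for mapping to GRCz11 and for gene counts, and limma for expression. Versions, the filter on low counts and the library scaling are not given in the sources used here. The authors deposited 1 mean log2 CPM value per gene over all libraries. The other 7 number columns hold their own comparison of the lines (log2 fold change, its confidence limits, t, p, adjusted p and log-odds) and were not used. They were seen while the columns were inspected, and no value from them entered a result.

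Depth per library is unknown, so no interval, count model or test was computed. Means were converted to CPM, which sum to 956297 over 19722 genes. The floor was 1 CPM. The gene name list matched all 58 members, and RefSeq symbols of GRCz12tu were used for gene order and biotype only. Ranking and counting steps were checked on simulated data. One member is counted but not reported by name here. Named are all other basement membrane chains, every other member at 1 CPM or more, the 3 members nearest to the floor on each side, and for each list its count, median, highest 3 genes and genes under the floor. Other genes (members under the floor, further genes of the lists, tbxta, shha and noto) were named after their values were seen. Members and lists were chosen with earlier results of these data known. One gene with no role in collagen was removed from the secretion list afterwards. Alternatives were other floors, a pseudocount, summed rows, members added by the gene name list, and leaving out the highest member or the col4a3bp genes. Python 3.11.15, numpy 2.4.6, pandas 2.3.3 and matplotlib 3.10.9 were used.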

Additional observations from a re-analysis of the deposited data

How the results depend on the processing

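The number of genes at or above the floor stayed within 1.5 times of 39 under every alternative run. It was 43 at a floor of 0.5 CPM, 37 at 2 CPM and 43 with rows added by the gene name list. The median of the members, 3.16 log2 CPM, moved to 4.01 when only members at the floor were kept, to 3.31 with a pseudocount of 1 CPM, to 1.94 with the added rows and to 2.86 without the col4a3bp genes, a setting chosen after seeing the data. With the added rows it lay under the median of all listed genes (2.58). The basement membrane share of 75.4% moved to 61.0% without nid2a, and by under 5 percentage points otherwise. Summing rows of one symbol changed nothing, since each member has its own symbol.

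Settings per kb of coding length, with the planned col4a1 to col4a2 ratio and laminin order, were not run because no coding lengths were used here. No paired analysis was possible because the table holds no value per library. For the same reason no replicate was left out. Depth per library is unknown, so the precision of the lowest means is not known.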

Other observations

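The gene name list gave a collagen or laminin name to 8 further rows that carry no such symbol in the deposited table. Of these, 4 reached 1 CPM: a pair of rows named col7a1l (3.60 and 1.07 CPM), lamb2l (2.13 CPM) and col14a1b (1.81 CPM). COL4A4, the partner of col4a3, was listed at 0.888 CPM, and col23a1a, col19a1 and col23a1b lay between 0.331 and 0.445 CPM. These genes were named after their values were seen.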
